A study of Mus musculus with 9 samples.

Results

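The genes described here are 10 mouse genes whose proteins act on the surface of cells to restrain or shape immune responses. They comprise 6 ligands of the B7 family (Cd274, Pdcd1lg2, Cd80, Cd86, Cd276 and Vtcn1), the TNF receptor family member Tnfrsf14, the galectin Lgals9, and the ectoenzymes Nt5e and Entpd1. Members were found by gene symbol in a count table of 55487 genes, and all 10 symbols were present once each. RNA-seq was carried out on MCEC, a cultured murine cardiac endothelial line, in 9 libraries. There were 3 libraries of the unmodified line (WT), 3 with a knockdown of Zbtb46 (KD) and 3 in which Zbtb46 was overexpressed (OE). Zbtb46 encodes a zinc finger transcription factor with a BTB domain, and the series title places it in the control of tumour angiogenesis and tumour immunity. How the knockdown and the overexpression were made, and whether the libraries of a group came from separate cultures, was not given in the sources used here, and cells with an empty vector were not analysed here. The p values therefore measure the spread between these libraries, which may be technical.

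B7 ligands meet receptors on T cells. PD-L1 and PD-L2, encoded by Cd274 and Pdcd1lg2, engage PD-1 and dampen activated T cells, while Cd80 and Cd86 proteins give the costimulatory signal through CD28 or an inhibitory one through CTLA-4. The ectoenzymes work in sequence outside the cell: CD39, the product of Entpd1, degrades extracellular ATP to AMP, and CD73, the product of Nt5e, turns AMP into adenosine, which restrains leukocytes through adenosine receptors. Endothelial cells line vessels through which leukocytes enter tissue, and both kinds of molecule have been described on them.

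Promoter windows are shown for the 4 members whose RNA differed between groups, because these sequences show how unlike their start sites are. RefSeq windows on GRCm38.p6 hold 250 bases before and 50 bases after a gene's annotated start, and 9 of the 10 members matched one. Cd86 had no entry. The RefSeq start can differ from the GENCODE M21 gene coordinates given below. The Nt5e and Cd276 windows lie wholly inside those coordinates. The sequences run 5′ to 3′ along the gene's own strand. Capitals mark matches, on either strand, to GGGCGG (GC box), TGANTCA (AP-1), TTCNNNGAA (GAS), GAAANNGAA (interferon-response core), ACGTG (hypoxia core), CCAAT or TATAAA. The Vtcn1 window lies at chr3:100825209-100825508 on the plus strand, Nt5e at chr9:88327359-88327658 on the plus strand, Cd276 at chr9:58554984-58555283 on the minus strand and Lgals9 at chr11:78984875-78985174 on the minus strand.
Vtcn1: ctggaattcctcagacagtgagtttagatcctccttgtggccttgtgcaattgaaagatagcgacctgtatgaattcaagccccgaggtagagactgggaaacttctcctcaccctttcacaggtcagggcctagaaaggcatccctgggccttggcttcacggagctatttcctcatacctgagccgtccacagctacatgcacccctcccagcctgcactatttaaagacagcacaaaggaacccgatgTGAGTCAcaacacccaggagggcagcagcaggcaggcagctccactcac
Nt5e: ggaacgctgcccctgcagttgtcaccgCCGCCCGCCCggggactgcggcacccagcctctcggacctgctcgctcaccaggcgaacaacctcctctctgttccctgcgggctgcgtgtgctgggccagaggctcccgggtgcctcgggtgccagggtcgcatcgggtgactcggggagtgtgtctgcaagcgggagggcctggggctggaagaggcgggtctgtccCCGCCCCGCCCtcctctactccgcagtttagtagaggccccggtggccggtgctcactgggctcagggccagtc
Cd276: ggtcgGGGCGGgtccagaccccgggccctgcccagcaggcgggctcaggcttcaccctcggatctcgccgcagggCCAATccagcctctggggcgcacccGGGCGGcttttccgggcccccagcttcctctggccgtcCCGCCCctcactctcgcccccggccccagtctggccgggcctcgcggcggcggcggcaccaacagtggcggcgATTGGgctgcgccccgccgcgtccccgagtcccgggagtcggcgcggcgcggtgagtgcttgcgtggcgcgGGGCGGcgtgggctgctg
Lgals9: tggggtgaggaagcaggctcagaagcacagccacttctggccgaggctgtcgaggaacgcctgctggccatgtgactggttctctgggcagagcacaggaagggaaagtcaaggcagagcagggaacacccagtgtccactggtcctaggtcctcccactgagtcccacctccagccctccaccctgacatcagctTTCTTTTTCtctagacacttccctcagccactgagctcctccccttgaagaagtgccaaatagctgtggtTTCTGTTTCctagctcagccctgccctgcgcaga

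The Cd276 and Nt5e windows were rich in G and C, at 78.3% and 71%, against a median of 52.7% over 32851 RefSeq promoter windows. Each held 4 matches to the GC box, a sequence found in 35.7% of all windows, and Cd276 held 2 CCAAT matches as well (37.4% of windows). The Vtcn1 window had 53.7% G and C, no GC box and a single AP-1 match that begins at base 2 of the transcript (7.8% of windows). In the Lgals9 window, 58% was G or C and there were 2 interferon-response cores, beginning 54 bases before the start and at base 17 after it (8.6% of windows). The E-box CANNTG, which can overlap ACGTG, was searched too and left in lower case, since 72.3% of windows hold it. GAS, ACGTG and TATAAA were found in 8.3%, 19.6% and 13.6% of all windows and in none of these 4. A match is a string of letters and does not show that a factor binds there.

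Libraries held between 39491828 and 55745849 counts, and 16955 genes passed the filter on low counts and were tested. Levels are given as CPM, counts relative to the library total after TMM scaling. Zbtb46 itself stood at 13.3, 14.4 and 13.2 CPM in the WT libraries, 11.7, 11.4 and 10.7 CPM in KD, and 192, 189 and 194 CPM in OE. The KD libraries were all below WT, by only 0.28 on the log2 scale (adjusted p = 0.00144, edgeR quasi-likelihood test with Benjamini-Hochberg adjustment), and OE was 14-fold above WT. Most leukocyte markers were close to background, and 14 of the 16 had means under 1 CPM in each group. The summed level of all 16 was 7.09 to 8.72 CPM, mostly from Cd68 and Cd14. Cd68 had means of 3.76, 4.86 and 3.40 CPM in WT, KD and OE, and Cd14 had 2.37, 1.47 and 3.56 CPM. Ptprc, Itgax and Spi1 had at most 4 counts over a group. Of the 4 tested, only Cd14 was called against WT, lower in KD and higher in OE. Over all genes tested, 10.4% were called lower in KD and 17% higher in OE. Without KD replicate 1 none was called in KD, and in OE the count was 0 without OE replicate 1 and 2 without KD replicate 3. Most defining endothelial markers were also nearly absent: 10 of 14 in WT and KD, and 11 of 14 in OE, including Pecam1, Cdh5 and Vwf, had means under 1 CPM, and the summed level of the list was 130 to 143 CPM in WT, 113 to 118 CPM in KD and 87.1 to 94.5 CPM in OE, mostly from Eng. Erg had 0 counts in all 9 libraries. Of its 5 tested genes, 3 were called lower in KD and 4 lower in OE, where 10.4% and 19.5% of all genes tested were called lower. Fibroblast and mural markers summed to 5150 to 5727 CPM in WT, 4891 to 4955 CPM in KD and 4064 to 4157 CPM in OE, mostly from the collagen gene Col1a1. Of the 9 tested genes of that list, 7 were called lower in OE (19.5% of all genes), while in KD 1 was called higher and 2 lower, where 11% and 10.4% of all genes were (1 in all without KD replicate 2 or without KD replicate 3). In bulk RNA, fewer cells of a kind and less RNA per cell cannot be told apart, and the part of these marker differences in the values below was not tested.

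In unmodified MCEC the 10 genes spanned a wide range, and only 2 were abundant. Per kb of exon, Lgals9 stood highest at 40.97 ± 2.46 CPM per kb (SD, n = 3), followed by Cd276 at 16.6 ± 0.796, Nt5e at 1.71 ± 0.230, Vtcn1 at 0.795 ± 0.0656 and Cd274 at 0.203 ± 0.0208 CPM per kb. These 5 levels were separate, with every library of one above every library of the next. Below them came Cd80, Tnfrsf14, Entpd1, Pdcd1lg2 and Cd86, at 0.0348 CPM per kb or less, and each overlapped its neighbour in the order. The order of the first 4 was the same in KD. In OE, Vtcn1 dropped to 0.145 ± 0.0675 CPM per kb and its libraries overlapped those of Cd274 at 0.221 ± 0.0336. PD-L1, the best known of these ligands, was thus measured at a small fraction of the level of the galectin and of Cd276 in all 3 groups.

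**Figure D1:**
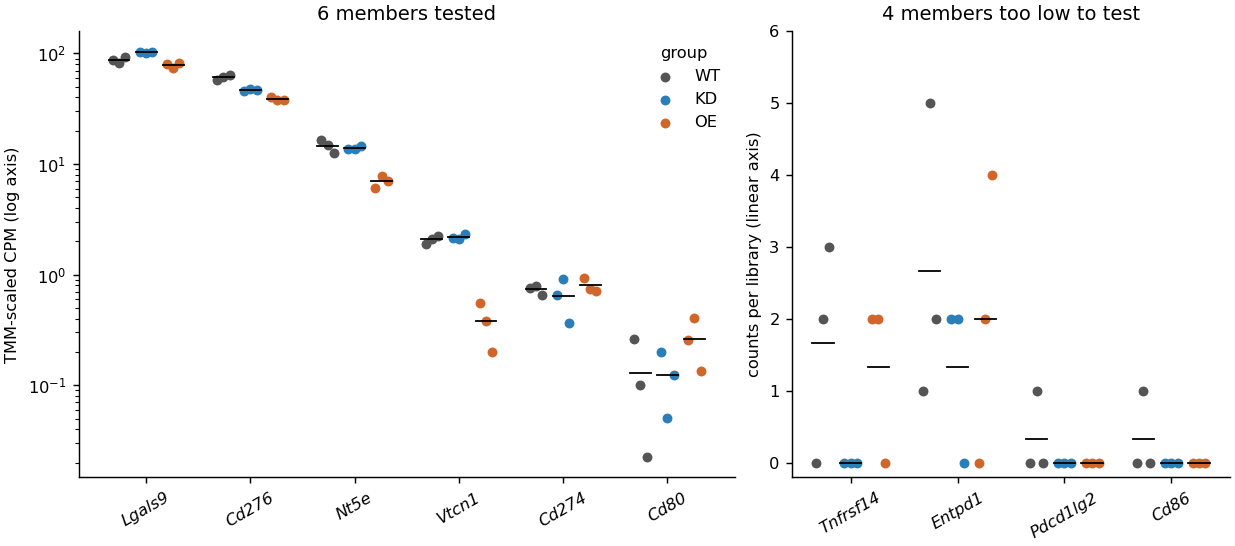
Level of each member in each of the 9 libraries, as TMM-scaled CPM on a log axis for the 6 tested members (left) and as counts for the 4 others (right); points are libraries, bars group means. The 3 OE libraries lie below all others for Vtcn1, Nt5e, Cd276 and Lgals9, and no library has more than 5 counts of any gene on the right.

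Of the 10 members, 6 had enough counts to be tested, and this filter passes a gene on the group where it is highest. In KD against WT, 1 tested member was called higher (Lgals9) and 1 lower (Cd276), where 11% and 10.4% of all genes tested were called higher and lower. In OE against WT, 4 were called lower and 0 higher, against 19.5% and 17% of all genes. The 4 were Vtcn1, Nt5e, Cd276 and Lgals9. The same 4 were called lower in OE against KD and 0 higher, against 22.1% and 19.4%. No member was called higher in either comparison with OE by edgeR, DESeq2 or limma-voom, and none of the uncalled tested members had an unadjusted p under 0.05. A test for any difference among the 3 groups also called these 4, where 47.7% of all genes were called. Ribosomal RNA, with that of mitochondria counted in, took 14.4% to 18.2% of the counts in the OE libraries and 9.55% to 12.0% in KD. In WT it took 17.3%, 7.44% and 10.0%, and its part in these differences between groups was not tested. The comparisons share libraries and are not independent of one another.

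**Figure D2:**
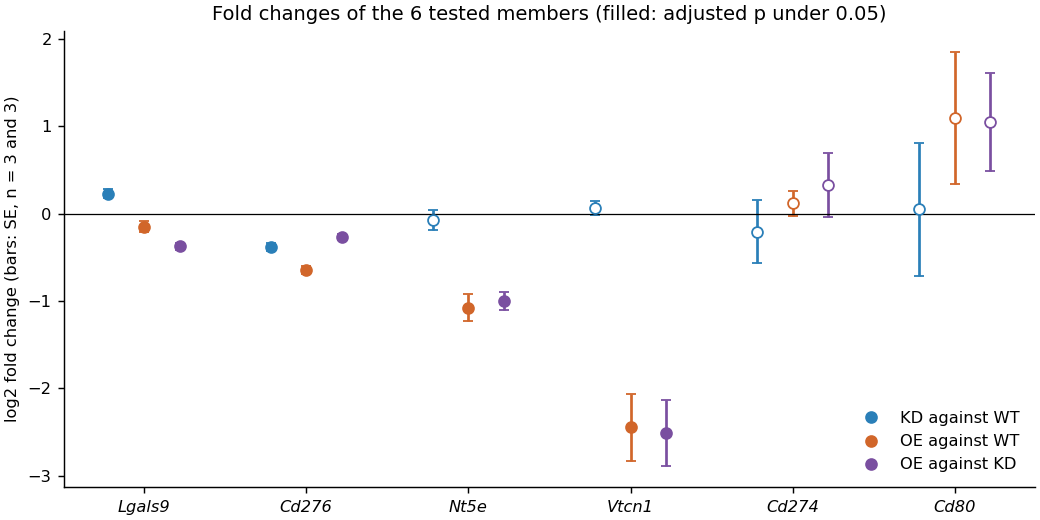
Log2 fold change of the 6 tested members in the 3 comparisons, with standard errors from the spread of log2 CPM over 3 libraries a group; filled points passed an adjusted p of 0.05. Vtcn1 fell by 2.45 and Nt5e by 1.08 in OE against WT, with KD near 0 for both, and the bars of Cd274 and Cd80 are wide.

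Vtcn1, which encodes the inhibitory ligand B7-H4, showed the largest change of the set. Its level was 1.90, 2.12 and 2.24 CPM in the WT libraries, 2.13, 2.11 and 2.32 CPM in KD, and 0.554, 0.384 and 0.200 CPM in OE. The OE libraries were far below the others without overlap, while WT and KD overlapped. In counts this was 72 to 126 per WT library, 84 to 113 per KD library and 9 to 26 per OE library, so the OE values rest on few counts. The mean in OE was 81.8% below WT, a log2 fold change of -2.45 (SE 0.38, adjusted p = 4.97e-07 by edgeR with Benjamini-Hochberg adjustment). Against KD the log2 difference was -2.51 (SE 0.38, adjusted p = 2.19e-07 by edgeR), and KD and WT differed by 0.065 (SE 0.080, adjusted p = 0.891). With single OE libraries left out, the OE to WT value ran from -2.81 to -2.15. The gene lies at chr3:100825459-100896922 on GRCm38, and of the 245 other tested genes starting within 10 Mb of it, 0% had a value as low in OE against WT. Its nearest tested neighbours on the right, Trim45 and Ttf2, had values of -0.15 and 0.20 there. On the left, the predicted genes Gm43466 and Gm43462 had -0.98 and 1.35, neither of them called. Man1a2 and Tent5c, 0.26 and 0.37 Mb before Vtcn1, were called lower at -0.44 and -1.35. Ptgfrn, 0.21 Mb after it, was called higher at 0.71.

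Cd276 encodes B7-H3, a B7 family protein found on many cells outside the immune system. It was the only member called lower in both modified lines. Its level was 57.8, 61.3 and 63.6 CPM in WT, 45.5, 47.6 and 47.0 CPM in KD, and 40.4, 38.0 and 38.3 CPM in OE. The 3 groups did not overlap, with WT highest and OE lowest. The log2 fold change was -0.38 in KD (SE 0.044, adjusted p = 2.17e-05) and -0.65 in OE (SE 0.049, adjusted p = 4.93e-09), both by edgeR with Benjamini-Hochberg adjustment. OE was also below KD, by 16.8% of the mean (log2 difference -0.26, SE 0.034, adjusted p = 0.000421 by edgeR).

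The genes around Cd276, at chr9:58524298-58555437, were themselves mostly lower in OE. Among the 203 other tested genes starting within 10 Mb, the median log2 fold change in OE against WT was -0.39, 62.1% were called lower, and 22.7% lay at or below Cd276. In KD the same neighbours had a median of 0.13, and 10.3% lay at or below Cd276. Its nearest neighbours were mostly lower in OE too. After it, Nptn, starting 57.9 kb away, had -0.78, and Rec114 had -0.47, which was not called. Before it, 4930461G14Rik had -0.67, while Insyn1, 35.7 kb away, went the other way at 0.48. With the median of its 20-Mb window taken off, the Cd276 value was -0.54 in KD and -0.24 in OE, and the difference between OE and KD changed sign to 0.27. What moves this stretch of the chromosome was not tested. A predicted gene on the opposite strand, Gm10657, shares 416 exon bases with Cd276 and had 0 to 4 counts per library.

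**Figure D3:**
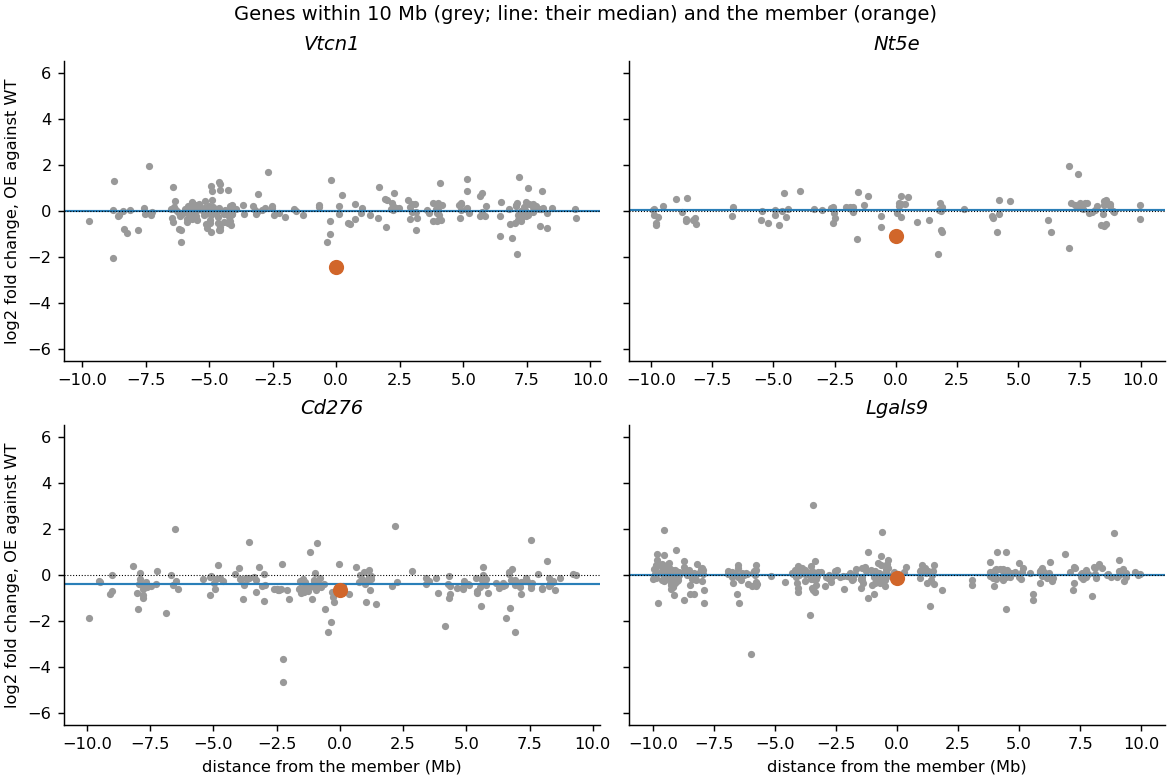
Log2 fold change in OE against WT of every tested gene starting within 10 Mb of each of the 4 called members (grey), by distance in Mb between gene starts; the line is the median of the grey points and the orange point the member. The median is -0.39 around Cd276 and close to 0 around the others, and 0% of the grey points near Vtcn1 lie as low as it.

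Lgals9, the most abundant member, encodes galectin-9, a sugar-binding protein that is a ligand of TIM-3 on T cells. It was the only member called higher in KD. Its level was 87.6, 82.3 and 92.8 CPM in WT, 104, 101 and 102 CPM in KD, and 80.8, 74.5 and 81.6 CPM in OE. KD lay above WT without overlap, and the highest OE library lay just below the lowest WT library. The mean was 17.0% above WT in KD (log2 fold change 0.23, SE 0.051, adjusted p = 0.00237 by edgeR) and 9.81% below WT in OE (log2 fold change -0.15, SE 0.065, adjusted p = 0.0262). The OE call was lost without WT replicate 3 (adjusted p = 0.076) and without OE replicate 2 (adjusted p = 0.173, both edgeR). OE against KD gave the larger difference, -0.38 on the log2 scale (SE 0.043, adjusted p = 3.18e-06 by edgeR), which was called in all 18 alternative fits. The gene lies at chr11:78962974-78984946, and the median OE to WT value of the 333 tested genes around it was 0.014.

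Cd274 and Cd80 were detected at low levels with no called difference. Cd274 stood at 0.765, 0.790 and 0.649 CPM in WT, 0.656, 0.904 and 0.369 CPM in KD, and 0.938, 0.747 and 0.711 CPM in OE, which is 18 to 47 counts per library. The groups overlapped throughout. Its log2 fold change was -0.21 in KD (SE 0.36, adjusted p = 0.747) and 0.12 in OE (SE 0.14, adjusted p = 0.828 by edgeR), and both signs turned when KD replicate 3 (0.0755) or OE replicate 1 (-0.0109) was left out. An antisense gene, AC119228.1, shares 511 exon bases with Cd274 and had 0 to 8 counts per library, and whether counting used strand is not given in the sources used here. Cd80 had 1 to 10 counts per WT library, 2 to 10 per KD library and 6 to 20 per OE library, with a log2 fold change of 1.10 in OE (SE 0.75, adjusted p = 0.252 by edgeR). That value ran from 0.599 without WT replicate 3 to 1.98 without WT replicate 1. At these counts even a doubling was within the spread between libraries.

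Pdcd1lg2, Cd86, Tnfrsf14 and Entpd1 were too low to test. Pdcd1lg2 and Cd86 each had 1 count in all, both in WT replicate 2, and the 0 counts in KD and in OE allow levels of up to 0.0216 and 0.0208 CPM, a limit that covers counting error only. Tnfrsf14, which encodes HVEM, the ligand of BTLA and CD160 and the receptor of LIGHT, had 0, 2 and 3 counts in WT, 0 in every KD library, and 2, 2 and 0 in OE. Entpd1 had 1, 5 and 2 counts in WT, 2, 2 and 0 in KD, and 0, 2 and 4 in OE. Differences between groups in these 4 genes were not detectable at this depth.

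Nt5e, the second ectoenzyme of the set, fell in OE. Its level was 16.6, 14.8 and 12.7 CPM in WT, 13.6, 13.7 and 14.5 CPM in KD, and 6.10, 7.79 and 6.98 CPM in OE. The highest OE library lay well below the lowest WT or KD library, and WT and KD overlapped. The mean in OE was 52.7% below WT (log2 fold change -1.08, SE 0.15, adjusted p = 8.73e-08) and 50.1% below KD (log2 difference -1.0015, SE 0.11, adjusted p = 1.62e-07), by edgeR with Benjamini-Hochberg adjustment. KD against WT was -0.076 (SE 0.12, adjusted p = 0.684). Nt5e lies at chr9:88327197-88372092, on the same chromosome as Cd276 but outside the stretch that was lower: the 100 tested genes within 10 Mb had a median of 0.044 in OE against WT, and 3% of them lay at or below Nt5e. The GC-rich windows of Nt5e and Cd276 printed above belonged to genes that were both lower in OE. So did the Vtcn1 and Lgals9 windows, with neither GC box nor CCAAT. Windows were printed only for members whose RNA differed between groups, and every one of these members was lower in OE. With no window of another member beside them, they cannot show whether sequence goes with direction.

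The enzymes, transporters and receptors around CD73 were taken from a list of 36 genes of adenosine and ATP handling, 29 of which were tested. In KD 1 was called higher and 7 lower, where 11% and 10.4% of all genes were called, and in OE 3 were higher and 8 lower, where 17% and 19.5% were. The list's median log2 fold change was -0.050 in KD and -0.034 in OE, beside -0.0022 and 0.0020 over all genes. In OE against KD, 7 were called in each direction (19.4% of all genes higher and 22.1% lower), with a median of 0.0075 beside 0.011 over all genes.

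Upstream of adenosine, Entpd1 was near 0 and other enzymes were measured at higher levels. Enpp1, a surface enzyme that cleaves ATP to AMP and pyrophosphate, had a mean of 2.33 ± 0.333 CPM in WT, 0.800 ± 0.325 CPM in KD and 3.29 ± 0.434 CPM in OE (SD, n = 3). It fell by 1.53 on the log2 scale in KD (adjusted p = 0.000111 by edgeR), was not called in OE against WT, and was higher by 2.02 in OE against KD (adjusted p = 6.76e-07). Alpl, the tissue-nonspecific alkaline phosphatase that can also make adenosine from AMP, fell from 5.24 ± 0.927 CPM in WT to 1.68 ± 0.375 in KD and 2.26 ± 0.273 CPM in OE. Its log2 fold change was -1.64 in KD (adjusted p = 3.09e-06) and -1.21 in OE. The NAD-consuming ectoenzymes Bst1 and Cd38 fell in OE, by 0.96 and 1.58 on the log2 scale (adjusted p = 4.14e-12 and 5.83e-07 by edgeR). Bst1 was the more abundant, with 88.4 ± 4.27 CPM in WT, 96.7 ± 2.51 in KD and 45.4 ± 1.79 CPM in OE. Entpd5, a relative of Entpd1 that acts on nucleoside diphosphates in the secretory pathway, was lower in OE than in KD by 0.48 on the log2 scale.

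Genes that remove, carry or sense adenosine are given next, as direct partners of Nt5e. Ada, adenosine deaminase, had 37.7 ± 2.28 CPM in WT and was not called in any comparison (adjusted p = 0.312 in KD and 0.136 in OE by edgeR). Adk, the kinase that returns adenosine to AMP, had 71.0 ± 6.93 CPM in WT and was not called either (adjusted p = 0.679 and 0.0561). Slc29a1, a nucleoside transporter, fell by 0.20 on the log2 scale in OE (adjusted p = 0.00802), a call lost without OE replicate 3 (adjusted p = 0.0514, both edgeR). Inside the cell, the AMP deaminase Ampd3 fell by 0.77 in KD and rose by 0.59 in OE, both called, and the adenylate kinase Ak1 fell by 0.44 in OE. None of the 4 adenosine receptors had a group mean of 0.5 CPM. Adora1 had 42 counts over the WT libraries, 1 over KD and 55 over OE. Adora2a had 39, 6 and 46 counts, Adora2b had 24, 30 and 39, and Adora3 had 1, 15 and 1, all 15 in a single KD library. Adora1 and Adora2a were called lower in KD (adjusted p = 0.000762 and 0.0196 by edgeR). The Adora2a call was lost when WT replicate 1 was left out, and likewise for replicate 2 or 3 of KD (adjusted p up to 0.101).

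**Figure D4:**
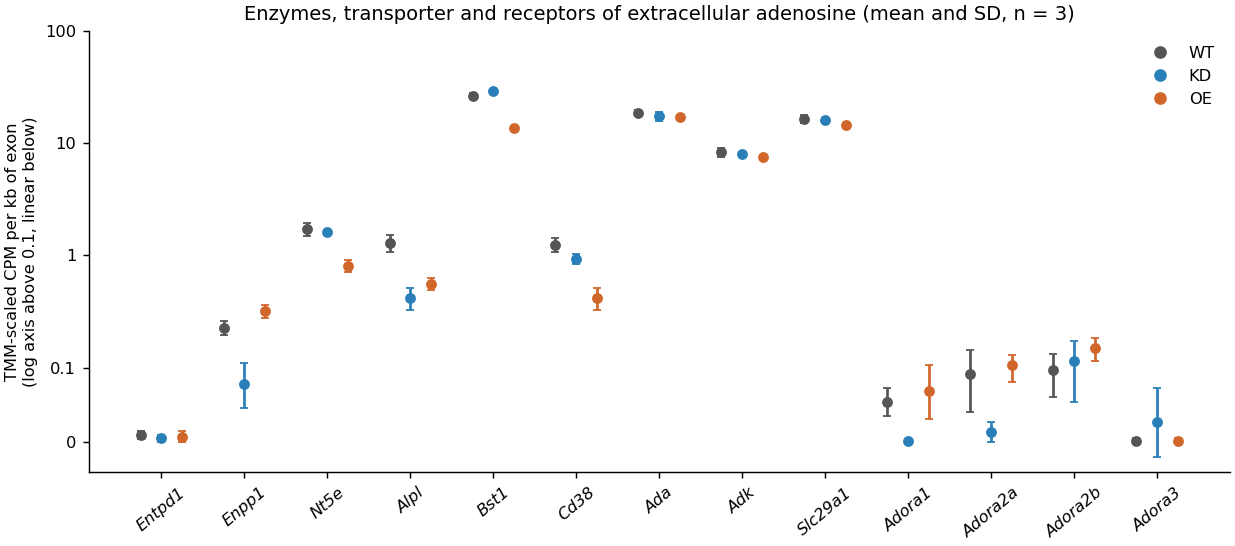
Mean level and SD (n = 3) per group of genes that make, degrade, carry or sense extracellular adenosine, as TMM-scaled CPM per kb of exon, log above 0.1 and linear below. Entpd1 lies near 0 in every group, Nt5e and Bst1 are lowest in OE, Enpp1 is lowest in KD, and the 4 receptors lie far below Ada, Adk and Slc29a1.

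Other inhibitory or costimulatory surface ligands were taken from a list of 33 genes, 31 of them in the table and 18 tested. In KD 3 were called higher and 3 lower (11% and 10.4% of all genes), and in OE 3 higher and 5 lower (17% and 19.5%). The medians were -0.093 and -0.048, beside -0.0022 and 0.0020 over all genes. OE against KD gave 3 higher and 6 lower (19.4% and 22.1% of all genes), with a median of -0.048 beside 0.011. Cd200, whose protein restrains myeloid cells through its receptor, fell most clearly in OE, from 20.7 ± 1.04 CPM in WT and 23.8 ± 1.70 in KD to 4.92 ± 0.368 CPM (log2 fold change -2.08 against WT, SE 0.076, adjusted p = 1.82e-13 by edgeR). Tnfsf18, the ligand of GITR, fell in both lines, by 1.04 in KD and 1.62 in OE on the log2 scale. The adhesion gene Nectin1 rose by 0.98 in KD and fell by 1.76 in OE, and it lies in the same window of chromosome 9 as Cd276, where the medians were 0.16 and -0.41. Nectin3 and the galectin gene Lgals3 were called higher in both lines, by 0.74 and 0.30 in KD and by 0.27 and 0.23 in OE. The Nectin3 call in OE was lost with library totals alone in place of TMM and without OE replicate 2. The galectin gene Lgals1, the most abundant of these ligands at 1127 CPM in WT, fell by 0.30 in OE. Pvr, the poliovirus receptor and a ligand of TIGIT, was higher by 0.55 in OE than in KD.

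The receptors that the members bind were mostly not expressed by these cells. Over all 9 libraries Pdcd1 had 1 count, Ctla4 had 3 and Btla had 3, and no group exceeded 5 counts of Treml2 or 2 of Tnfsf14. Cd28 had 12, 14 and 1 counts in WT, KD and OE, Cd160 had 16, 15 and 29, and Havcr2, which encodes TIM-3, had 9 counts in KD and 0 elsewhere. Of the 20 receptors in the list 8 were tested. In KD 1 was called higher and 1 lower (1 in all without KD replicate 1), in OE 1 higher and 2 lower, and in OE against KD 4 higher and 2 lower. Over all genes the shares called higher and lower were 11% and 10.4%, 17% and 19.5%, and 19.4% and 22.1%. The list's medians were -0.62, 0.71 and 0.86, beside -0.0022, 0.0020 and 0.011 over all genes, and came from genes mostly under 1 CPM. Sirpa, the receptor of CD47, moved in opposite directions: it had 16.6 ± 0.897 CPM in WT, 7.49 ± 0.977 in KD and 30.03 ± 0.719 CPM in OE (log2 fold change -1.15 in KD, adjusted p = 8.50e-09, and 0.85 in OE, adjusted p = 4.20e-08 by edgeR). Rgmb, a bone morphogenetic protein co-receptor that PD-L2 also binds, had 17.3 ± 1.37, 20.8 ± 0.471 and 13.4 ± 0.558 CPM. It rose by 0.27 in KD, a call lost without KD replicate 1 and with library totals alone in place of TMM (adjusted p up to 0.0601 by edgeR). In OE, Rgmb fell by 0.36 (adjusted p = 0.000823 by edgeR). The T cell genes Icos and Tnfrsf9 were called at levels under 1 CPM. Icos was lower in OE than in WT by 1.87, and Tnfrsf9 higher in OE than in KD by 1.79. Tnfrsf9, Tnfrsf4 and Tnfrsf18, all called higher in OE against KD, share a chromosome 4 window with a median of 0.48. With that median taken off, they stood at 1.31, 0.62 and 1.39. The Tnfrsf18 call was lost in 5 of 17 alternative fits. The Icos call was lost with limma-voom, and without WT replicate 1 or 2, or OE replicate 2 or 3 (adjusted p up to 0.144 over these limma-voom and edgeR fits).

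PD-L1 is known to be induced by interferon signalling and held at the surface by CMTM6. Of 32 genes of interferon signalling or PD-L1 regulation, 31 were tested. In KD 6 were called higher and 5 lower (11% and 10.4% of all genes), with a median of 0.0023 beside -0.0022 over all genes. That total of 11 became 7 without WT replicate 3 or any 1 of the KD libraries. In OE 8 were called higher and 11 lower (17% and 19.5% of all genes), with a median of -0.038 beside 0.0020. In OE against KD 12 were higher and 11 lower (19.4% and 22.1% of all genes), with a median of -0.0054 beside 0.011. Cmtm6 fell in OE from 39.8 ± 1.62 CPM in WT and 41.7 ± 1.17 in KD to 25.5 ± 1.13 CPM (log2 fold change -0.65, SE 0.050, adjusted p = 2.12e-08 by edgeR), while Cd274 RNA was not called. Jak2, which lies on chromosome 19 as Cd274 does and signals from the interferon gamma receptor, fell by 0.28 in OE (adjusted p = 0.000786 by edgeR). Socs3 and Nfkb1 were called lower in both modified lines, by 0.34 and 0.20 in KD and by 0.39 and 0.21 in OE. Tyk2 and Stt3a fell by 0.57 and 0.35 in OE, in a chromosome 9 window with a median of -0.35, and Jak1 rose by 0.36 in a chromosome 4 window with a median of 0.36. With those medians taken off, Tyk2 stood at -0.22, Stt3a at 0 and Jak1 at -0.0015.

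**Figure D5:**
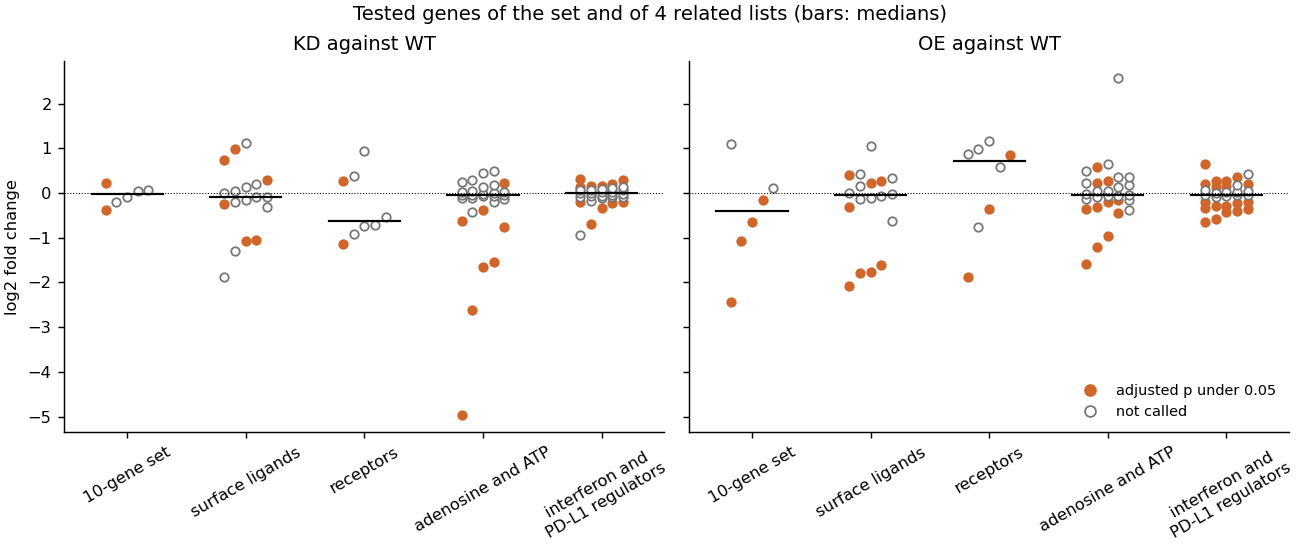
Log2 fold changes of the tested genes among the 10 members and in 4 related lists, in KD against WT (left) and OE against WT (right); each point is a gene, orange where the adjusted p was under 0.05, and bars are medians. The medians of the ligand, adenosine and interferon lists lie near 0 with called genes on both sides, and 4 of the 6 members in OE are orange and below 0.

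The genes whose pattern over the 9 libraries was most like that of a member were sought for Lgals9, the most abundant, and for Cd276, which had the smallest p for any difference. Likeness was the root mean square difference of log2 CPM centred on each gene's own mean, over 9945 named genes with at least 5 CPM in a group. Nearest to Lgals9 were Wdr81, Vat1 and Mid1ip1, with differences of 0.041, 0.044 and 0.044, and each was higher in KD and lower in OE than in WT, for instance by 0.22 and -0.16 for Vat1. Nearest to Cd276 were Cebpd, Tspan9 and Ccdc157, at 0.036, 0.054 and 0.062. Cebpd, a transcription factor gene, had log2 fold changes of -0.33 in KD and -0.58 in OE, beside -0.38 and -0.65 for Cd276. Because these genes were picked for likeness in the same 9 libraries, their shared directions follow from the choice.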

How the data were processed

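The authors deposited 1 table of counts for 9 poly-A selected libraries, with a row per Ensembl gene. The values are whole numbers with unequal totals and were taken as not normalised. GRCm38 (mm10) is named in the submitters' processing notes. The aligner, the counting program and the use of strand are not given in the sources used here, so genes that overlap or have near-identical copies may share counts. Repeated rows of a gene held identical counts and were used once, and 0 columns belonged to other samples. Each column matched 1 sample by name. No 2 replicates agreed within sampling noise.

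Counts were filtered with filterByExpr by group, scaled by TMM and fitted with edgeR 4.0.16 (R 4.3.3, limma 3.58.1) in a quasi-likelihood model over all 9 libraries with group as the only term. The p values are two-sided and adjusted by Benjamini-Hochberg over all 16955 genes, and calls needed an adjusted p under 0.05. The smallest two-sided p of an exact permutation test of 3 against 3 is 0.1, so genes were judged by the fit across all genes. Standard errors come from log2 CPM (prior count 2). Levels are TMM-scaled CPM, or CPM per kb of merged exons from GENCODE M21. Promoter windows are RefSeq's. The procedure was tested on simulated data in which only genes with many counts were changed, by a fixed fold. That test did not cover small changes or low counts, such as those of Lgals9 and Vtcn1 in OE. Tables and figures used pandas 2.3.3 and matplotlib 3.10.9 in Python 3.11.15.

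The members and gene lists were chosen with earlier results of these data known. Named genes are the members, Zbtb46, up to 4 called genes with the smallest p per list and comparison, direct partners of a member, and the 3 genes most like a member in pattern. Alpl in OE is named beside its KD value. Not every gene chosen this way is reported here. Alternatives were DESeq2 1.42.0 or limma-voom in place of edgeR, other scalings and filters, fits of only 2 groups, a replicate block, removal of window medians and leaving out each library. Counts of called list genes under these settings were added after seeing the data.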

Additional observations from a re-analysis of the deposited data

How the results depend on the processing

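The calls of Vtcn1, Nt5e and Cd276 in both comparisons with OE, and of Cd276 in KD, held in every alternative fit that could test them; Vtcn1 was removed by a minimum of 10 counts in every library. Under library totals alone, 1 member in place of 2 was called in KD: Cd276 was kept and Lgals9 was lost (adjusted p = 0.0581 by edgeR). Lgals9 in OE against WT was also not called with upper-quartile factors (0.0921) or with only those 2 groups fitted (0.0518), both edgeR adjusted p. Removing window medians moved Zbtb46 in KD to -0.225 and turned Cd276 in OE against KD to 0.271. Among uncalled values, leaving out 1 library gave -0.52 to 0.0755 for Cd274 in KD, -0.0109 to 0.195 for Cd274 in OE, -0.462 to 0.933 for Cd80 in KD and -0.168 to 0.0172 for Nt5e in KD. Of all genes called, 51.4% were higher in KD and 46.6% in OE, against 35.8% and 31.6% with library totals, and 42.7% and 54.3% with upper-quartile factors. Called adenosine genes in KD were 5 rather than 8 with only 2 groups fitted, and called receptors in OE against KD were 3 rather than 6 with at least 10 counts in every library. Replicate numbers did not pair the libraries (correlations of same-numbered deviations -0.0421 to 0.049), and a replicate block called 2 members in KD, 4 in OE and 4 in OE against KD, as without it. Depth limited Cd80 and the 4 members not tested.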
